A study of Mus musculus with 21 samples.

Results

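The 5 genes described here encode subunits of the receptors for GABA, the main inhibitory transmitter of the cortex: Gabra3, Gabra4 and Gabrb2 of the GABA-A receptor, and Gabbr1 and Gabbr2 of the GABA-B receptor. They were chosen by symbol, matched through the GENCODE symbols of the Ensembl identifiers, and all 5 were found among the 5544 genes of the table. The table holds 12 GABA receptor subunit genes in all, and the other 7, all GABA-A subunits, are given for comparison by counts and in part by name. Bulk RNA sequencing was done on cortex from male C57BL/6 mice (C57Bl/6J in the study's methods) aged 12 weeks, collected 24 h after the last impact, with 1 library per mouse. All mice of both groups were labelled WT, for wild type. The 11 HF-HI (high-frequency head impact) mice had received repeated head impacts on successive days, and the 10 sham mice were handled and anesthetised without impact. The comparison asks how the transcripts of each subunit stood 24 h after the impacts. Each value is a variance-stabilized expression value on a log2 scale, so that a difference between groups is read here as an approximate log2 ratio. Percent changes and summed linear values are approximate as well. Tests used limma (a linear model per gene), two-sided, with p adjusted over all genes by Benjamini-Hochberg and a threshold of 0.05.

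The GABA-A receptor is a chloride channel built from 5 subunits, most often alpha, beta and gamma or delta, and the alpha subunit sets much of where the receptor sits and how it responds to drugs. The GABA-B receptor is coupled to G proteins and works as a pair of unlike subunits: Gabbr1 binds GABA, while Gabbr2 brings Gabbr1 to the cell surface and activates the G protein. In cortex the GABA-A receptor carries fast inhibition, and the GABA-B receptor carries slow inhibition after synapses and limits transmitter release before them.

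On the deposited values Gabra3 and Gabbr2 rose by about the same amount after HF-HI, with no overlap between the groups, Gabrb2 rose by far less, and Gabra4 and Gabbr1 did not pass the test. These sizes and some of the calls depended on the treatment of GC content, on which the libraries of the groups differed. With the GC trend of each library removed Gabra3 was at 0.54, Gabbr2 at 0.28 and Gabrb2 at 0.20, all past the threshold. With the GC slope of each library as a covariate, an analysis added after the values were seen, Gabra3 and Gabrb2 passed, Gabbr2 did not, and Gabra4 passed as higher. Of the 5 subunits, 3 passed an adjusted p of 0.05, all of them higher in HF-HI, where 66.3% of all 5544 genes passed, 32.6% as higher and 33.6% as lower. The groups did not overlap for 2 of the 5, against 13.5% of all genes. With so many genes past the threshold, the count of subunits called is no result of its own, and what follows is about sizes and differences between subunits. Over all genes 49.3% of calls were higher in HF-HI, and 37.9% once each library was centred on its median. In a bulk sample, fewer cells of a type and less RNA per cell cannot be told apart.

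Gabra3 (ENSMUSG00000031343, chrX:72432681-72656848, minus strand, GRCm38) encodes an alpha subunit. In sham its value ran from 9.57 to 9.87 with a median of 9.64, and in HF-HI from 10.05 to 10.31 with a median of 10.14. Each of the 11 HF-HI mice was above every sham mouse. The means were 9.70 ± 0.12 (SD, n = 10) and 10.16 ± 0.080 (SD, n = 11). The difference was 0.47 (SE 0.044, 95% interval 0.38 to 0.56, limma, adjusted p = 8.15e-09), which is 38.1% more transcript. Among all 5544 genes it ranked 383 from the top by signed difference.

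Gabra4 (ENSMUSG00000029211, chr5:71569749-71658308, minus strand) encodes an alpha subunit found mainly in receptors outside synapses, together with delta. Its value ran from 10.66 to 11.16 in sham, median 10.88, and from 10.62 to 11.09 in HF-HI, median 10.82. The groups overlapped over nearly their whole range, and 4 of the 11 HF-HI mice were above the sham median. The difference was -0.044 (SE 0.062, 95% interval -0.17 to 0.084, limma, adjusted p = 0.541). With the GC slope of each library as a covariate it turned to 0.29 and passed as higher (SE 0.078, limma, adjusted p = 0.00756), where all other alternatives missed the threshold and the adjusted p ran up to 0.929. A call for Gabra4 thus depended on that covariate. Without passing, its difference was also above 0 with the GC trend removed, alone (0.025), with the replicate block (0.016) or with length (0.0061). The exons of Gabra4 share 46 bases with those of Gabrb1 on the opposite strand, 0.756% of the exonic length of Gabra4. The protocol linked by the submitters is for stranded libraries, and whether reads were counted by strand is not given in the sources used here.

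Gabrb2 (ENSMUSG00000007653, chr11:42419757-42629028, plus strand) encodes a beta subunit found in many synaptic receptors. Its value ran from 11.62 to 11.88 in sham, median 11.79, and from 11.72 to 11.95 in HF-HI, median 11.88. The groups overlapped, and 5 of the 11 HF-HI mice were above every sham mouse. The difference was 0.093 (SE 0.033, 95% interval 0.025 to 0.16, limma, adjusted p = 0.0155), or 6.66% more transcript. It was 0.041 with each library centred on its median and 0.055 after quantile normalization, and passed in neither (limma, adjusted p = 0.304 and 0.131). After the trend of each library on exonic GC content was taken off it was 0.20 (limma, adjusted p = 1.37e-05). Over the 13 alternative analyses of the whole data set it ran from 0.041 to 0.20, with adjusted p from 1.37e-05 to 0.304.

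Gabbr1 (ENSMUSG00000024462, chr17:37045966-37075067, plus strand) encodes the GABA-binding subunit of the GABA-B receptor. Its value ran from 13.08 to 13.36 in sham, median 13.24, and from 13.14 to 13.37 in HF-HI, median 13.27. The groups overlapped, with 1 HF-HI mouse above every sham mouse and 10 of the 11 above the sham median. The difference was 0.032 (SE 0.031, 95% interval -0.032 to 0.097, limma, adjusted p = 0.368). It turned to -0.076 once the GC trend was removed (limma, adjusted p = 0.0480), and the alternatives ran from -0.11 to 0.033 with adjusted p from 0.00886 to 0.902. It was also below 0, without passing, with libraries centred on their medians and after quantile normalization, at -0.019 and -0.011 (limma, adjusted p = 0.581 and 0.782). A direction for Gabbr1 therefore depended on scaling and on the treatment of GC content.

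Gabbr2 (ENSMUSG00000039809, chr4:46662305-46991873, minus strand) encodes the partner subunit. Its value ran from 11.34 to 11.81 in sham, median 11.50, and from 11.89 to 12.17 in HF-HI, median 11.99. All 11 HF-HI mice were above every sham mouse, although sham mice spread widely. The means were 11.56 ± 0.18 (SD, n = 10) and 12.02 ± 0.11 (SD, n = 11). The difference was 0.46 (SE 0.061, 95% interval 0.33 to 0.58, limma, adjusted p = 1.05e-06), or 37.2% more transcript. It was 0.28 with the GC trend removed (limma, adjusted p = 3.46e-05), and 0.18 with the GC slope as a covariate, which did not pass (SE 0.089, limma, adjusted p = 0.116). The other 12 alternatives were all past the threshold. For Gabra3 all 13 alternatives passed, from 0.41 to 0.59, and the value with the slope as a covariate was 0.43 (SE 0.079, limma, adjusted p = 0.000443).

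**Figure D1:**
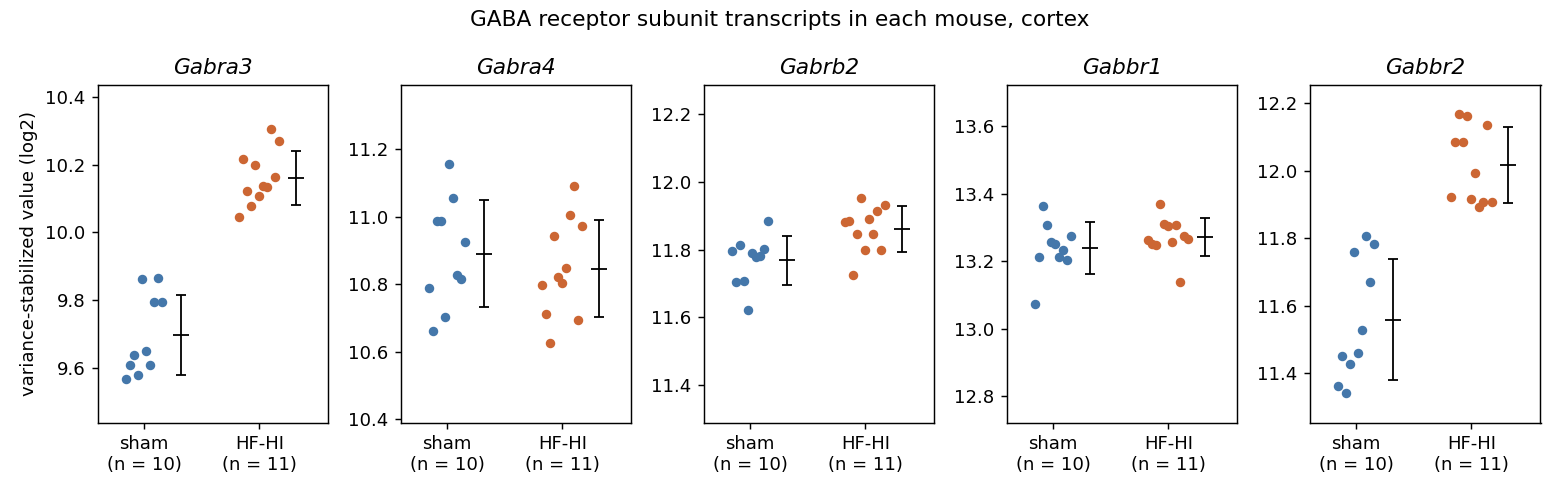
Variance-stabilized value (log2) of each subunit in each mouse, 10 sham (blue) and 11 HF-HI (orange), with the mean and SD in black and a y axis of the same length in each panel. The groups are apart for Gabra3 and Gabbr2 and overlap for Gabra4, Gabrb2 and Gabbr1.

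Because Gabra3 and Gabbr2 rose by like amounts and Gabbr1 did not pass, the start regions of these 3 genes are shown. They are RefSeq windows on GRCm38.p6, from 250 bases before to 50 after a transcript start, 5′ to 3′ on the strand of the gene. Capitals mark the letters GGGCGG, known as a GC box, and those of a TATA box, TATAAA, on either strand. The first lies at chrX:72656758-72657057 (minus strand), the second at chr4:46991665-46991964 (minus strand) and the last at chr17:37045716-37046015 (plus strand).
Gabra3: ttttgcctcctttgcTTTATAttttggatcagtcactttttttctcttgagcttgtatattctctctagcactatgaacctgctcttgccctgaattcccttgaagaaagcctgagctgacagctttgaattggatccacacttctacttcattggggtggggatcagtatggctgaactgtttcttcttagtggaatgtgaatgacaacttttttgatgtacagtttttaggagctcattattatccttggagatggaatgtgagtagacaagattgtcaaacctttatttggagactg
Gabbr2: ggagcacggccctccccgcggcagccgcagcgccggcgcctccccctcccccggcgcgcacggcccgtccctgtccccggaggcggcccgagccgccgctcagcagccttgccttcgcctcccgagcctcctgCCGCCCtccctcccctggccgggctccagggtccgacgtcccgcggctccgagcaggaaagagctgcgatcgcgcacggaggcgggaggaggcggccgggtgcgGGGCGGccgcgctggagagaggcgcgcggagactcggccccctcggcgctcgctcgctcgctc
Gabbr1: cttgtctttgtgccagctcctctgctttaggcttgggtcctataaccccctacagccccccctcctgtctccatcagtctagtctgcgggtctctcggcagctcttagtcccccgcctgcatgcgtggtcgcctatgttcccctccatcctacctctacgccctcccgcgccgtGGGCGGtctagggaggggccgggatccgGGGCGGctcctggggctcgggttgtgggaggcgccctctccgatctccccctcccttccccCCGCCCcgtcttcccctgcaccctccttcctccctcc

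The Gabra3 and Gabbr2 windows differed strongly in base composition. The Gabra3 window was 39.3% GC and the Gabbr2 window 80.3%, against a median of 52.7% over all 32851 windows, and 8.92% and 99.1% of the windows had a lower GC content. The Gabbr1 window was 67.3% GC. Gabra3 held TATAAA 1 time, on the strand opposite to the gene, and no GGGCGG. Gabbr2 held GGGCGG at 2 places and Gabbr1 at 3, and neither held TATAAA. Of all windows, 35.7% held GGGCGG and 13.6% TATAAA on either strand. The letters TGACGTCA (a cAMP response element, in 1.79% of windows), its shorter form TGACG (20.8%, which every TGACGTCA also holds) and GCGTGGGCG (an Egr1 motif, 0.612%) were absent from all 3. A second RefSeq window of Gabra3, which overlaps the one shown, was 43% GC, and 16.5% of the windows had a lower GC content. It held the same TATAAA and none of the other motifs. The single window of Gabra4 held GGGCGG 2 times, and 1 of the 3 windows of Gabrb2 held TGACG at 1 place, a GC box at 1 and a TATA box at 1. A match is a description of letters only.

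Levels can be compared between genes only per length, here as the value minus the log2 of the exonic length in kb. In sham the order of the 5 was Gabbr1 at 10.28, Gabrb2 at 9.10, Gabbr2 at 8.82, Gabra4 at 8.29 and Gabra3 at 7.72. In HF-HI it was Gabbr1 at 10.31, Gabbr2 at 9.28, Gabrb2 at 9.19, Gabra4 at 8.24 and Gabra3 at 8.19. Thus the level of Gabbr2 stood below that of Gabrb2 in sham and above it in HF-HI. The gap in HF-HI was smaller than the SD of Gabbr2 (0.11) and larger than that of Gabrb2 (0.067). The level of Gabra3 stood below that of Gabra4 in sham and within its spread in HF-HI (SDs of 0.080 and 0.14). Both statements hold only for the union of exons. With the longest annotated transcript in its place the sham order was the same and was kept in HF-HI, where Gabrb2, at 9.86, stayed above Gabbr2, at 9.49, and Gabra4, at 8.81, above Gabra3, at 8.29. Of the subunits outside the 5, Gabrb1 was lowest at 5.67 in sham. Gabrd, at 8.06, stood above Gabra3 in sham and below it, at 7.90, in HF-HI.

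**Figure D2:**
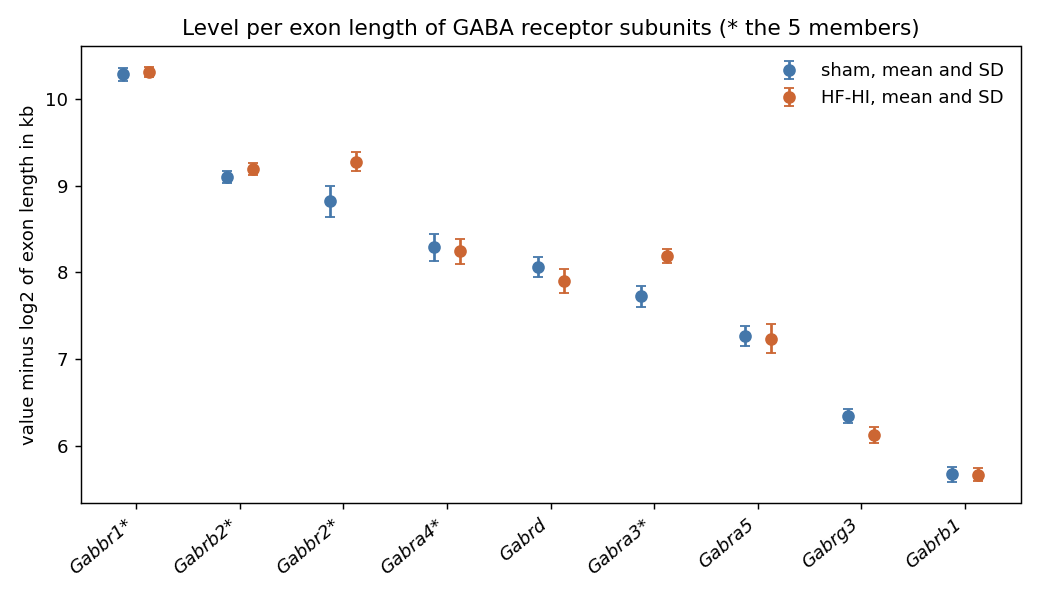
Value minus log2 of exonic length in kb for the 5 subunits and 4 other GABA-A subunits, in order of the sham mean, with asterisks at the 5 members; points are means and bars SDs over 10 sham (blue) and 11 HF-HI (orange) mice. Gabra3 and Gabbr2 are the genes whose groups lie farthest apart, and the order of genes shown here is that for the union of exons.

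The difference between 2 subunits in the same mouse does not change when a library is shifted as a whole. All 10 pairs were tested by permutation of the mice (two-sided, 100000 resamples, adjusted over the 10 pairs), and 7 differed between the groups. Gabbr2 relative to its partner Gabbr1 ran from -2.02 to -1.43 in sham, median -1.70, and from -1.41 to -1.08 in HF-HI, median -1.26. No HF-HI mouse overlapped the sham range. The log2 ratio was 0.42 higher in HF-HI (SE 0.070, permutation test, adjusted p = 2.5e-05, from the smallest p the permutations can give, 1e-05). It was 0.36 higher with the GC trend removed, at the same adjusted p, and 0.17 higher with the GC slope as a covariate, which did not pass (linear model, t test, adjusted p = 0.179). Within sham the ratio rose with the slope (r = 0.74, rho = 0.81, permutation p = 0.0173 and 0.00684, adjusted p = 0.0307 and 0.0342, r = 0.70 without the 2 mice farthest from the median slope), and in HF-HI no relation passed (r = 0.22, rho = 0.30, permutation p = 0.519 and 0.371, adjusted p = 0.577 and 0.412).

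Among GABA-A subunits, Gabra4 relative to Gabra3 ran from 0.84 to 1.51 in sham, median 1.18, and from 0.49 to 0.87 in HF-HI, median 0.70. The ratio was 0.51 lower in HF-HI, a difference of -0.51 (SE 0.083, permutation test, adjusted p = 2.5e-05), and -0.52 with the GC trend removed. These 2 alpha subunits have almost the same exonic GC content, 43.1% for Gabra3 and 43.5% for Gabra4, and yet within sham the ratio fell as the GC slope of the library rose (r = -0.93, rho = -0.90, permutation p = 0.00035 and 0.00096, adjusted p = 0.00233 and 0.0072, r = -0.96 without the 2 mice farthest from the median slope). In HF-HI it did not (r = -0.19, rho = -0.13, permutation p = 0.58 and 0.713, adjusted p = 0.611 and 0.713). With the slope as a covariate the difference was -0.15 and did not pass (SE 0.11, linear model, t test, adjusted p = 0.263). Gabrb2, at 41.4%, relative to Gabra3 had a median of 2.11 in sham and 1.69 in HF-HI, a difference of -0.37 (SE 0.050, permutation test, adjusted p = 2.5e-05). It was -0.27 with the slope as a covariate and passed (SE 0.086, linear model, t test, adjusted p = 0.014). Within sham this ratio also fell as the slope rose (r = -0.70, rho = -0.76, permutation p = 0.0199 and 0.0153, adjusted p = 0.0307 and 0.0437, r = -0.76 without the 2 mice farthest from the median slope). In HF-HI its relation did not pass (r = 0.52, rho = 0.54, permutation p = 0.0993 and 0.0934, adjusted p = 0.124 and 0.126).

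Of the remaining pairs, Gabbr1 relative to Gabra3 differed by -0.43 without overlap of the groups, Gabbr2 relative to Gabra4 by 0.50 and Gabbr2 relative to Gabrb2 by 0.36 (permutation tests, adjusted p = 2.5e-05, 0.0004 and 0.00038). With the GC trend removed the ratio to Gabra4 was 0.26 higher (permutation test, adjusted p = 0.00661), and that to Gabrb2 0.084, which did not pass (adjusted p = 0.137). With the slope as a covariate they were at -0.11 and 0.019, and neither passed (linear model, t tests, adjusted p = 0.417 and 0.852). Within sham both ratios rose with the slope (r = 0.93 and 0.72, rho = 0.95 and 0.78, permutation p = 0.00025 and 0.0197 by Pearson and 0.00018 and 0.0111 by Spearman, adjusted p = 0.00233, 0.0307, 0.0036 and 0.0414, r = 0.91 and 0.68 without the 2 mice farthest from the median slope). Gabrb2 relative to Gabra4 differed by 0.14 (permutation test, adjusted p = 0.0405), a call lost in 10 of the 21 fits that left out a library, with the replicate block and after quantile normalization (adjusted p up to 0.0803, 0.0502 and 0.092), and the ratio was -0.13 with the GC slope as a covariate, not passing (linear model, t test, adjusted p = 0.179). Gabbr2 relative to Gabra3 differed by -0.0092 (SE 0.053, permutation test, adjusted p = 0.864), and by -0.26 with the GC trend removed (adjusted p = 3.33e-05). Gabbr1 relative to Gabrb2 and to Gabra4 differed by -0.061 and 0.077 and passed in neither case (permutation tests, adjusted p = 0.228 and 0.302). Once the GC trend was removed both passed, at -0.28 and -0.10 (adjusted p = 2.5e-05 and 0.0421), and 9 of the 10 ratios differed. Whether Gabra3 rose more than Gabbr2 thus depended on GC content, which is 55.5% in the exons of Gabbr2. With the slope as a covariate 4 of the 10 ratios differed, all lower in HF-HI. Beside Gabrb2 to Gabra3 these were Gabbr1 and Gabbr2 to Gabra3, at -0.42 and -0.25, and Gabbr1 to Gabra4, at -0.28 (linear model, t tests, adjusted p = 0.00825, 0.0111 and 0.0111).

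**Figure D3:**
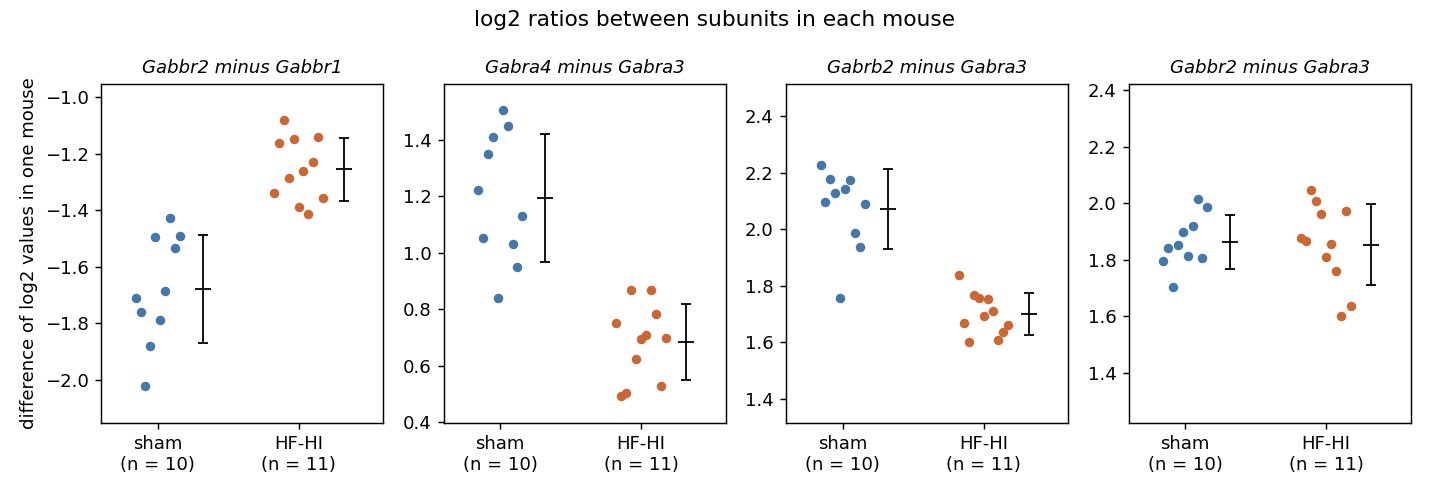
Difference of the log2 values of 2 subunits within each mouse, 10 sham (blue) and 11 HF-HI (orange), with mean and SD in black and a y axis of the same length in each panel. Gabbr2 was closer to Gabbr1 in every HF-HI mouse than in any sham mouse, Gabra4 and Gabrb2 were lower relative to Gabra3, and Gabbr2 relative to Gabra3 had the same centre in both groups.

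Within a group, no pair of subunits passed after adjustment over 20 relations (10 pairs in 2 groups, permutation tests, 100000 resamples). Of these, 3 had an unadjusted p under 0.05 by Pearson and 3 by Spearman. The strongest by Pearson was Gabra3 with Gabbr2 in sham, with r = 0.88 and rho = 0.71 (permutation p = 0.00357 and 0.0272, adjusted p = 0.0714 and 0.272), and r = 0.91 without the 2 mice farthest from the median of Gabra3. Sham replicates 5, 8, 9 and 10 held the 4 highest values of both genes. In HF-HI the same pair had r = -0.11 and rho = -0.11 (permutation p = 0.742 and 0.755, adjusted p = 0.929 and 0.902), and r = 0.49 without the 2 mice farthest from the median of Gabra3. The difference between the groups was not tested. The strongest by Spearman was Gabra4 with Gabbr2 in HF-HI, with r = -0.67 and rho = -0.76 (permutation p = 0.0268 and 0.00848, adjusted p = 0.262 and 0.17), and r = -0.52 without the 2 mice farthest from the median of Gabra4. The 2 GABA-B partners were not related in sham, with r = 0.040 and rho = -0.067 (permutation p = 0.918 and 0.867, adjusted p = 0.988 and 0.902).

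After the group means were taken off, the genes most like each subunit over the 21 libraries, by Pearson r as a description, were these. For Gabbr2 they were Mical3 (r = 0.93), Chd5 (0.92) and Pip5k1c (0.91), which themselves rose by 0.46, 0.50 and 0.62 (limma, adjusted p = 2.75e-07, 1.03e-06 and 1.93e-07). Their exons were 52.9%, 57.4% and 59.9% GC. For Gabra4 they were Fermt2 (r = 0.89), Picalm (0.89) and Pdzd8 (0.87), and of these Picalm fell by 0.11 (limma, adjusted p = 0.00886), a call lost with the GC trend removed (adjusted p = 0.768). Gabra3 was closest to Ppfibp1 (r = 0.81), Larp4b (0.75) and Ctcf (0.74), and of these Larp4b rose by 0.15 and Ctcf by 0.25 (limma, adjusted p = 0.000346 and 2.21e-05). Gabrb2 was closest to Rab6a (r = 0.70), Lrrc49 (0.70) and Psma6 (0.68), and Gabbr1 to Pofut1 (r = 0.66), Megf10 (0.65) and Nrxn3 (0.64), of which Megf10 was 0.097 and Nrxn3 0.11 higher (limma, adjusted p = 0.0329 and 0.0126). The call of Megf10 was lost in 10 of the 21 fits that left out a library (adjusted p up to 0.0641) and with the GC trend removed (adjusted p = 0.0565), and that of Nrxn3 with libraries centred on their medians (adjusted p = 0.148).

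The libraries of the groups differed in a measure that bears on these values, their slope on GC content, and its origin was not tested. The slope of a library's deviations on exonic GC content, per 10 percentage points, ran from -0.23 to 0.0058 in sham, median -0.11, and from -0.039 to 0.16 in HF-HI, median 0.11 (permutation test, two-sided, p = 1e-05, the smallest it can give). Of the 11 HF-HI libraries, 10 had a slope above every sham library. The median value of a library, which median centring would set equal, averaged 9.69 in sham and 9.74 in HF-HI without overlap (permutation test, p = 1e-05). Depth relative to the median library ran from 0.580 to 1.26 in sham and from 0.548 to 1.64 in HF-HI (permutation test, p = 0.104). Within a group, 3 of the 10 relations between a subunit and the GC slope, looked at after the values were seen, passed by Pearson and none by Spearman, and 7 by Pearson had an unadjusted p under 0.05. Those that passed were Gabra4 in sham (r = -0.84, rho = -0.71, permutation p = 0.00287 and 0.0265, adjusted p = 0.0143 and 0.0891, r = -0.85 without the 2 mice farthest from the median slope), Gabra3 in HF-HI (r = -0.83, rho = -0.67, permutation p = 0.00169 and 0.028, adjusted p = 0.0143 and 0.0891, r = -0.44 without them) and Gabbr1 in HF-HI (r = 0.74, rho = 0.50, permutation p = 0.0124 and 0.121, adjusted p = 0.0412 and 0.187, r = 0.41 without them). The relations of Gabra3 and Gabbr1 were thus weaker without those 2 mice, and in sham both had the opposite sign (r = 0.65 and -0.29, rho = 0.54 and -0.43, permutation p = 0.046 and 0.438 by Pearson and 0.113 and 0.22 by Spearman, adjusted p = 0.0659, 0.446, 0.187 and 0.275). Gabbr2 was higher at a higher slope in both groups, without passing after adjustment (r = 0.67 in sham and 0.59 in HF-HI, rho = 0.68 and 0.66, permutation p = 0.0409 and 0.0461 by Pearson and 0.0356 and 0.0304 by Spearman, adjusted p = 0.0659 for both by Pearson and 0.0891 for both by Spearman, r = 0.59 and 0.47 without the 2 mice farthest from the median slope). Of the 20 relations between a ratio and the slope, also looked at afterwards, 14 passed by Pearson and 7 by Spearman. The smallest p by Pearson was of Gabbr2 to Gabra3 in HF-HI (r = 0.92, rho = 0.86, permutation adjusted p = 0.0016 and 0.0072, r = 0.79 without the 2 mice farthest from the median slope). In sham it did not pass (r = 0.45, rho = 0.43, permutation adjusted p = 0.229 and 0.256). Gabbr1 to Gabra3 had opposite signs in sham and HF-HI (r = -0.75 and 0.87, rho = -0.77 and 0.65, permutation adjusted p = 0.0307, 0.0043, 0.0414 and 0.0737, r = -0.83 and 0.53 without those mice). Group and slope were themselves correlated at r = 0.84 over the 21 libraries, and 1883 genes passed with the slope as a covariate in place of 3674, so a fit with both has wide errors and can take away an effect of the impacts. The HF-HI library with the lowest slope, replicate 9, also held the highest Gabra3, the highest Gabra4 and the lowest Gabbr1 value of its group. Replicates 9 and 11, the 2 HF-HI libraries with the lowest slopes, also had the lowest relative depths of that group, 0.572 and 0.548. A relation in HF-HI that rests on these 2 mice cannot be told apart from one with depth. Without replicate 9 Gabra3 was 0.45 and Gabbr2 0.47 higher in HF-HI (limma, adjusted p = 1.33e-08 and 1.25e-06).

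None of the other GABA-A subunits in the table rose. Of 7 measured of 16 listed, 4 were lower and none higher, where 33.6% and 32.6% of all genes were, with a median difference of -0.11 beside -0.0086 over all genes. Gabrg3, a gamma subunit, ran from 9.78 to 10.03 in sham and from 9.52 to 9.86 in HF-HI, with 8 of the 11 HF-HI mice below every sham mouse. It fell by 0.22 on the log2 scale (SE 0.040, limma, adjusted p = 5.83e-05). The delta subunit Gabrd fell by 0.16 (SE 0.054, limma, adjusted p = 0.0110), with 2 of the 11 HF-HI mice below every sham mouse. Gabra5 differed by -0.029 and Gabrb1 by -0.0028 (limma, adjusted p = 0.679 and 0.951).

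These smaller differences were sensitive to GC content. With the trend removed, 2 of the 7 were higher and 2 lower, and with the length trend also removed 0 and 3. Of all 5539 genes in these fits, 1620 were higher and 1716 lower with the GC trend removed, and 1586 and 1665 with length also removed. With GC alone removed Gabrg3 was at -0.13 and Gabrd at -0.34, both still past the threshold (limma, adjusted p = 0.00816 and 3.59e-05). Over the alternatives the adjusted p of Gabrg3 ran from 4.75e-06 to 0.0416 and that of Gabrd from 3.59e-05 to 0.198, the last with the GC slope as a covariate. Gabrd also missed the threshold with the replicate block, at -0.16 (limma, adjusted p = 0.0601). With GC alone removed Gabrb1 turned to 0.11 and passed as higher (limma, adjusted p = 0.0167), but was at 0.048 without passing when length was also removed (adjusted p = 0.246), with adjusted p over the alternatives from 0.0167 to 0.978. On chromosome 5 the head-to-head neighbours Gabra4 and Gabrb1 both missed the threshold on the deposited values.

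**Figure D4:**
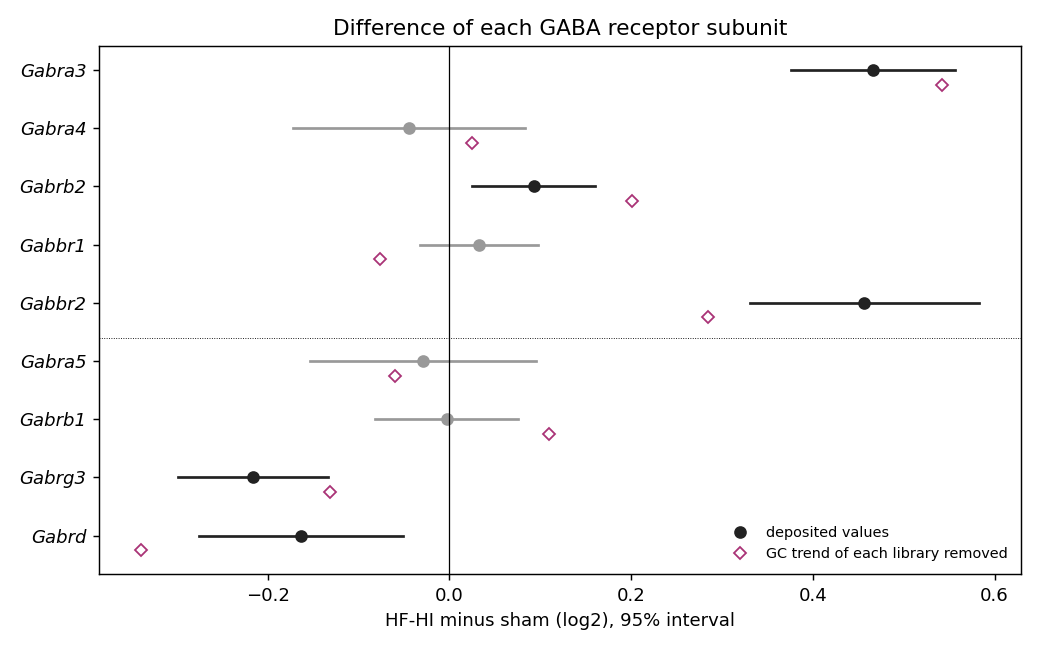
HF-HI minus sham (log2) of the 5 subunits, above the dotted line, and of 4 other GABA-A subunits; filled points and lines are limma differences with 95% intervals, black where the adjusted p was under 0.05 and grey otherwise, and open diamonds are the differences after removal of each library's GC trend. Gabra3 and Gabbr2 were the highest on both scales, and the signs of Gabbr1, Gabra4 and Gabrb1 differ between them.

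Genes that make, package, take up and break down GABA formed the first list beside the receptors. Of 10 measured of 13 listed, 5 rose and 1 fell, where 32.6% and 33.6% of all genes did, with a median difference of 0.10. The glutamine carrier Slc38a1 rose by 0.78, the vesicular GABA transporter Slc32a1 by 0.64 and the GABA uptake carrier Slc6a11 by 0.62 (limma, adjusted p = 1.89e-10, 1.5e-06 and 2.81e-07). The GABA-making enzymes Gad1 and Gad2 differed by -0.097 and -0.010 and the GABA transaminase Abat by 0.020, and none passed (limma, adjusted p = 0.149, 0.906 and 0.753). With the GC trend removed, 5 of the list were higher and 0 lower, where 1620 and 1716 of all 5539 genes were. Slc32a1 was then at 0.30 and Slc6a11 at 0.48.

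In the list on clustering, trafficking and turnover of GABA-A receptors, 13 of 31 measured genes rose and 10 fell, where 32.6% and 33.6% of all genes did, with a median of 0.063. The scaffold gephyrin, Gphn, which anchors receptors with gamma subunits at synapses, fell by 0.21 (limma, adjusted p = 1.36e-05). The adhesion molecules of inhibitory synapses Igsf9b and Nlgn2 rose by 0.55 and 0.44 and the gephyrin-binding Iqsec3 by 0.52 (limma, adjusted p = 3.55e-07, 0.000142 and 1.21e-06). The adaptor subunits of receptor endocytosis split, with Ap2a1 up by 0.46 and Ap2m1 down, a difference of -0.27, and dystrophin, Dmd, was also at -0.27 and Plcl2 at -0.23 (limma, adjusted p = 0.000805, 1.03e-06, 1.64e-06 and 0.000191). Gabarapl1 and Nsf did not pass (0.073 and 0.063, limma, adjusted p = 0.233 and 0.0622). With the GC trend removed 10 were higher and 9 lower, where 1620 and 1716 of all 5539 genes were. Nlgn2 no longer passed, at 0.14 (limma, adjusted p = 0.0706). Ap2a1 was then at 0.22 and Dmd at -0.14, both still past the threshold (limma, adjusted p = 0.0336 and 0.00233). Nsf gained a call in that setting, at 0.089 (limma, adjusted p = 0.0120). When the GC slope was a covariate 1 was higher and 7 lower, where 995 and 888 of all 5544 genes were. Gphn, Igsf9b and Iqsec3 did not pass (limma, adjusted p = 0.329, 0.0577 and 0.223). Ap2a1 turned to -0.18 and Nlgn2 to -0.013 in that fit, without passing (limma, adjusted p = 0.285 and 0.941).

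Around the GABA-B receptor, 10 of 26 measured auxiliary subunits and effectors rose and 4 fell, where 32.6% and 33.6% of all genes did, with a median of 0.062. The G protein genes Gnb1, Gng3 and Gnao1 rose most, by 1.09, 0.90 and 0.71, each without overlap of the groups (limma, adjusted p = 3.77e-10, 2.83e-09 and 9.02e-10). Of the potassium channel subunits that the receptor opens, Kcnj9 rose by 0.39, while Kcnj3 and Kcnj6 were at 0.075 and 0.098 and did not pass (limma, adjusted p = 2.9e-07, 0.157 and 0.0645). Kcnj9 was at 0.19 and Kcnj3 at 0.14 with the GC trend removed, and both passed (limma, adjusted p = 0.00068 and 0.00458). Of the auxiliary subunits that bind Gabbr2, Kctd16 fell by 0.11 and Kctd12 was at -0.13 without passing (limma, adjusted p = 0.0097 and 0.15). Rgs4 and Gnai3 fell by 0.18 each and Mpdz by 0.12 (limma, adjusted p = 0.00472, 0.000482 and 0.00473), and all 3 calls were lost with the GC trend removed. In that setting 8 of the list were higher and 3 lower, where 1620 and 1716 of all 5539 genes were.

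Genes for chloride and bicarbonate, which set the driving force through the GABA-A channel, made the last list. Of 14 measured, 3 rose and 5 fell, where 32.6% and 33.6% of all genes did, with a median of -0.034. The chloride exporter Slc12a5 rose by 0.34 and the importer Slc12a2 fell by 0.16 (limma, adjusted p = 1.03e-06 and 0.0151). With the GC trend removed Slc12a5 was at 0.096 and still passed, and Slc12a2 at -0.067 did not (limma, adjusted p = 0.0030 and 0.249). The kinases Wnk2 and Wnk3 moved apart, by 0.79 and -0.24, Slc4a8 rose by 0.27 and the carbonic anhydrase Car2 fell by 0.25 (limma, adjusted p = 8.15e-09, 5.92e-06, 5e-05 and 0.00467). Wnk2 was at 0.49 and Wnk3 at -0.12 with that trend removed, and both still passed (limma, adjusted p = 7.62e-08 and 0.000282).

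**Figure D5:**
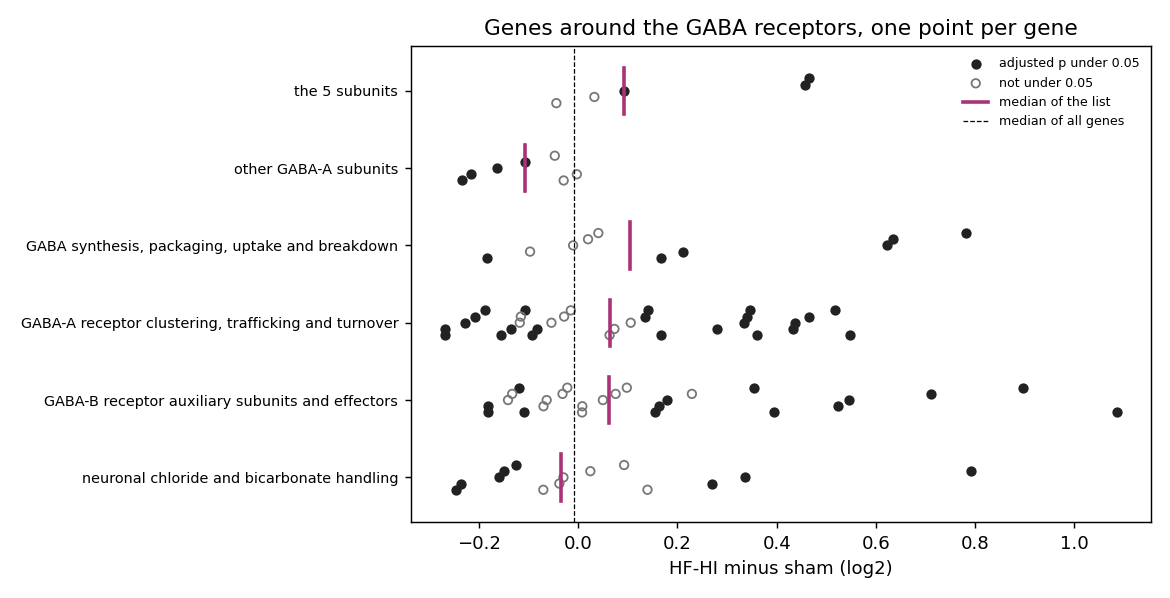
HF-HI minus sham (log2) of each measured gene of the 5 subunits and of the lists around them, 1 point per gene, filled where the limma adjusted p was under 0.05; purple bars are list medians and the dashed line is the median of all genes. All 4 lists around the receptors hold rises larger than those of Gabra3 and Gabbr2, and the other GABA-A subunits lie below the dashed line or near it.

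Markers of cell types were set beside the subunits, with the summed level of a list as the log2 of its summed linear values. For inhibitory neurons, 5 of 13 measured markers rose and 2 fell, where 32.6% and 33.6% of all genes did. Their summed level ran from 14.17 to 14.31 in sham and from 14.22 to 14.39 in HF-HI. Sst rose by 0.63 (limma, adjusted p = 2.18e-06), Pvalb was at -0.069 (limma, adjusted p = 0.369), Cck was the most abundant per length, and Vip was not analysed here. For excitatory neurons, 7 of 12 rose and none fell, where 32.6% and 33.6% of all genes did. Nrgn was the most abundant per length. The summed level ran from 13.99 to 14.29 in sham and from 14.57 to 14.87 in HF-HI without overlap. Genes with high values weigh most in such a sum, and the median difference of the list was smaller, at 0.23. Slc17a7 rose by 0.89 (limma, adjusted p = 8.88e-11), and Nrgn by 1.27 or more with any 1 library left out. The 7 that passed rose, as Gabra3 and Gabbr2 did, while 4 of the other 5 were below 0 without passing, and the part of cell types in the rises of the subunits was not tested. Of 3 microglial markers, 1 rose and 2 fell, where 32.6% and 33.6% of all genes did. Their summed level ran from 10.98 to 11.11 in sham and from 10.74 to 11.01 in HF-HI.

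The summed levels of the remaining marker lists overlapped between the groups. For astrocytes, led by Slc1a2, 3 of 9 rose and 3 fell, where 32.6% and 33.6% of all genes did. The mean summed levels were 16.16 in sham and 16.20 in HF-HI. For the oligodendrocyte lineage, 3 of 10 rose and none fell, against the same shares of all genes, with means of 15.64 and 15.75. For endothelial cells, 1 of 2 rose, against 32.6% of all genes, with means of 9.99 and 10.16. Slc2a1 was the more abundant of them and did not pass. For tissue next to the cortex, 1 of 6 fell, against 33.6% of all genes, with means of 13.22 and 13.14. The choroid plexus marker Ttr ran from 6.16 to 11.51 in sham and from 6.86 to 13.35 in HF-HI, so some libraries of both groups held more of it than others.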

How the data were processed

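Each of the 21 mice gave 1 cortical library, and its group was read from the sample label. The authors aligned reads to mm10 with STAR, counted them per transcript with eXpress and deposited DESeq2 (given as version 3.6.3) variance-stabilized values, which are normalized for library size and on a log2 scale, per Ensembl gene. The values run from 4.59 to 17.7 over 5544 genes. The filter that left these genes, the annotation and the versions of STAR and eXpress are not given in the sources used here, and isoforms are not resolved. Counts were not used here, so total depth is unknown. Relative depth came from the spacing of values whose linear size is between 500 and 600.

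Symbols, positions, exonic lengths and GC content came from GENCODE on GRCm38, the same assembly, for 5539 genes. Groups were compared over all genes with limma 3.58.1 in R 4.3.3 (lmFit, eBayes with a trend, two-sided), with p adjusted by Benjamini-Hochberg over all 5544 and called under 0.05. Ratios and correlations used permutation tests with 100000 resamples in Python 3.11.15 (scipy 1.17.1, numpy 2.4.6), tables were handled with pandas 2.3.3, and figures were drawn by matplotlib 3.10.9. The GC trend of a library was a lowess curve (span 0.3), and its subtraction would also remove a biological difference that follows GC content. The fit was tested on simulated data. The SD between mice of a group was 0.10 for the median gene.

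The members and lists were chosen with earlier results of these data known. Genes named are the subunits, the 3 largest rises and falls past the threshold in each list, a fixed set around GABA signaling, the 3 genes most correlated with each subunit and the most abundant marker of each cell type per exonic length. Some of these genes are not reported here. The relations of subunits and ratios with the GC slope were added after the values were seen. The alternatives were a threshold of 0.1, a minimum difference of 0.25, the Wilcoxon test, a variance prior without trend, 2 other scalings, a filter on the lowest quartile, a block on replicate number, GC removal alone, with the block or with length, depth as a covariate, and each library left out. The GC slope as a covariate (limma, and a linear model with a t test for ratios) was added after the values were seen. Amino acid sequences were not used here.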

Additional observations from a re-analysis of the deposited data

Results flagged for a closer look

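Among the values of named genes, ratios and library measures in the 10 sham mice, 85 in all, the value of 1 lay far from the others. Rgs4, a regulator that shortens G protein signals, was 12.74 in sham replicate 5, while the other 9 sham mice lay between 12.99 and 13.22. The gap to the nearest mouse was 0.53 of the range. Chance sets apart about 1 group in 20. The HF-HI group, with 11 mice, was not examined this way. None of the 5 subunits had such a value.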

How the results depend on the processing

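Gabra3 kept its call under all 12 other analyses set before the values were seen, under 1 added afterwards (the GC slope of each library as a covariate) and without any 1 library. Gabbr2 and Gabra4 kept their side of the threshold in all but the added one, where Gabbr2 lost its call (0.18) and Gabra4 was reversed and called higher (0.29). Gabrb2 lost its call with a minimum difference of 0.25 (at 0.093), with libraries centred on their medians (0.041), after quantile normalization (0.055) and with the replicate block (0.086). Gabbr1 was reversed and called lower with the GC trend removed (-0.076), also with the replicate block (-0.082) or with length (-0.11). The cause was not tested. With each library left out, Gabra3 ran from 0.45 to 0.48, Gabbr2 from 0.43 to 0.48, Gabrb2 from 0.077 to 0.11, Gabbr1 from 0.014 to 0.046 and Gabra4 from -0.070 to -0.015. The count of calls over all genes was 3674, from 3562 to 3805 with each library left out, 1433 with the minimum difference, by construction, and 1883 with the GC slope as a covariate. The count of ratios that differed was 7, 6 or 7 with a library left out, 6 after quantile normalization, 9 with the GC trend removed, with or without length, and 4 with the GC slope as a covariate.

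Of other genes, with the GC trend removed Gabrb1 turned to 0.11 and Picalm to 0.0090 (0.0093 with the replicate block), Psma6 to 0.18 with GC and length removed, and Slc1a2 to -0.29 after quantile normalization. With the GC slope as a covariate Abat turned to -0.24, Ap2a1 to -0.18, Nlgn2 to -0.013, Pdzd8 to 0.30, Picalm to 0.085, Slc12a2 to 0.049, Slc1a2 to -0.0081 and Slc2a1 to -0.22. In that fit 1 gene of receptor clustering was higher in place of 13, where 995 of all genes were in place of 1810. Of 61 named genes other than subunits, 21 kept direction and side of the threshold in every setting. With GC removed, the other GABA-A subunits had 2 higher and 2 lower calls, in place of 0 and 4, and chloride genes 5 higher in place of 3 (0 and 3, and 3, with length also removed). Over all 5539 genes, 1620 were higher and 1716 lower with GC removed, and 1586 and 1665 with length also removed. Centring on medians gave 8 lower GABA-B effectors in place of 4 and 8 lower chloride genes in place of 5, and quantile normalization 7 lower GABA-B effectors. Lower calls also grew over all 5544 genes, to 2376 with median centring and 2242 after quantile normalization, in place of 1864. With the lowest quartile of genes left out, 2 GABA-B effectors were lower, where 1456 of the 4158 genes tested were. With the minimum difference no subunit was called lower, and 3 genes of GABA turnover were higher and 2 of clustering lower, where 987 and 446 of all 5544 genes were.

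Replicate numbers did not pair the mice: same-numbered deviations correlated from -0.31 to 0.36, and 1 of 20 libraries was closest to its own number. With the replicate block, 3497 genes, 2 subunits (in place of 3) and 6 ratios were called.

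The group and the GC slope of the libraries nearly coincided (10 of 11 HF-HI slopes above every sham slope), and the origin of the slope was not tested. An effect of the impacts and an effect of whatever else goes with the slope therefore cannot be told apart. This bears on every subunit and ratio, the ratio of Gabra4 to Gabra3 included, which followed the slope within sham. Values are of whole cortex at 1 time, without counts, isoforms or protein, and cell composition was not measured.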
